A study of Mus musculus with 6 samples.

Results

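The KCNE genes Kcne1, Kcne1l (also called Kcne5), Kcne2, Kcne3 and Kcne4 were followed with Kcnq1 and Kcnh2 in RNA from whole mouse hearts. These 7 genes are all the rows of the deposited count table that carry one of the 7 symbols, out of 46983 genes listed. The set was chosen by gene family with the measured differences between mutant and control hearts known, above all that of Kcne1l, so the values of that comparison are given as a description of the members, and the counts of members called by each tool support nothing. Each library came from 1 heart at E13.5 (days of embryonic development), of a mixed C57BL/6 x DBA/2 strain. The 3 mutant hearts (replicates 1, 5 and 10) were Tnnt2 Cre/+; Wt1 flox/flox. The 3 control hearts (replicates 2, 3 and 5) are labelled wild type, and in the study's methods they carried both floxed Wt1 alleles without the Cre, so that both groups share the floxed alleles and differ in the driver as well as in the deletion. The Cre is under the promoter of cardiac troponin T, so it acts in heart muscle cells and their descendants, and the methods add that part of the proepicardium recombines too. Total counts lay between 44244665 and 56373393 per heart.

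Kcnq1 and Kcnh2 encode pore-forming alpha subunits of voltage-gated potassium channels. With KCNE1, KCNQ1 carries the slow delayed rectifier current of the heart, while KCNH2 carries the rapid one, and both currents end the action potential. KCNE proteins are short, cross the membrane once and form no pore of their own: they join alpha subunits and change how these open, close and reach the cell surface. KCNE1 slows and enlarges the current of KCNQ1, KCNE3 keeps KCNQ1 open, and KCNE4 and KCNE5 are known mainly as inhibitory partners of it. In a whole heart, fewer cells of a type and less RNA per cell cannot be told apart.

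Kcne1l (ENSMUSG00000090122) lies on the minus strand of the X chromosome, at chrX:142304752-142306294 of GRCm38. GENCODE M21 gives it 1 exon of 1543 bases with a reading frame of 143 codons and the type protein_coding, whereas the description column of the deposited table calls it a pseudogene. The study's primers for quantitative PCR of Kcne1l are shown because they show which part of the gene that assay read. Both matched the GENCODE transcript exactly, after the coding part, in an amplicon of 140 bases. The forward primer lay at chrX:142305488-142305507 and the reverse primer at chrX:142305368-142305387.
Kcne1l forward primer: agaagatgatgagaggtcag
Kcne1l reverse primer: ttaattcggttggatatgcg

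The promoter of Kcne1l was examined for G-rich words because WT1, the zinc finger factor deleted here, is known to bind such DNA. RefSeq windows of GRCm38.p6, from 250 bases before to 50 after a start, were at hand for 5 of the 7 genes, in 7 windows (none for Kcne1 and Kcnq1). That of Kcne1l was 69.7% G and C, against a median of 52.7% over all 32851 windows. Neither GCGGGGGCG nor GCGTGGGAG occurred on either strand in any of the 7 windows, and these words were found in 2.91% and 0.472% of all windows. The looser word GNGGGNGNG, of which GCGGGGGCG is a case, occurred 3 times in the window of Kcne1l, 6 times in that of Kcnh2 and 2 times in that of Kcne4, with overlapping matches counted. It was found in 43.8% of all windows, so its presence is no particular feature of these genes. The stretch printed is the part of the Kcne1l window upstream of the GENCODE transcript, chrX:142306295-142306448 on the minus strand, with the match, which lies on the opposite strand, in capitals.
Kcne1l upstream: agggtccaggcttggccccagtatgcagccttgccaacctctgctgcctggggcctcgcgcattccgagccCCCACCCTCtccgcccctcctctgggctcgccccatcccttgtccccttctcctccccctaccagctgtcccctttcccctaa

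A letter match is not a binding site, and no binding was measured in these hearts.

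Kcne1l, an inhibitory KCNE subunit like Kcne4, was the member with the widest difference between the groups. Its counts were 1184, 976 and 543 in control replicates 2, 3 and 5, and 224, 227 and 244 in mutant replicates 1, 5 and 10. As CPM, counts scaled to a common normalized library size, these were 21.02, 16.97 and 12.3 in the control hearts. The mutant hearts had 4.31, 4.33 and 4.85 CPM. All mutant values lay below all control values, and the lowest control heart was replicate 5. The means were 16.8 ± 4.35 CPM (SD, n = 3) in controls and 4.50 ± 0.305 CPM (SD, n = 3) in mutants, and the fitted log2 fold change was −1.90 with a standard error of 0.20, or 3.73-fold lower in the mutant. The controls spread far more than the mutants: the coefficient of variation of FPKM was 26.7% in control hearts, where counting error alone would give 3.33%, and 2.97% in mutant hearts, below the 6.57% that counting error would give. The last contrast depends on the scaling: FPKM are scaled by library totals alone. On CPM the mutant SD of 0.305 around a mean of 4.50 was a wider relative spread, not below counting error. Among 14156 genes with a mean of at least 1 CPM, 44 had a larger absolute log2 fold change than Kcne1l, and 33 of these were lower in the mutant.

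**Figure D1:**
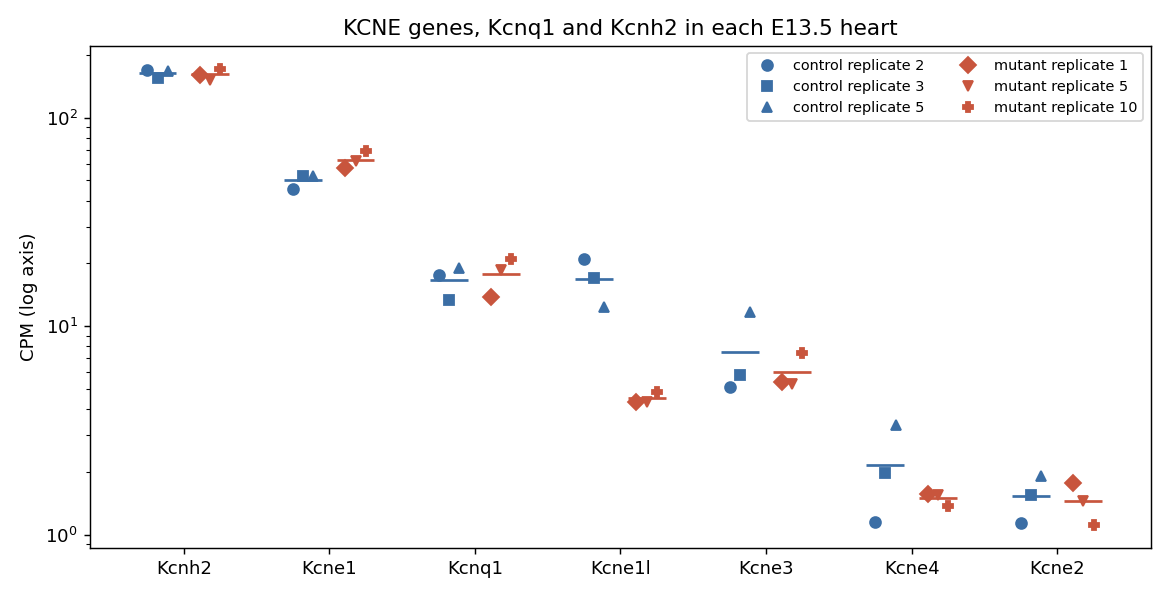
CPM of the 7 genes in each heart on a log axis, with control hearts in blue, mutant hearts in red, 1 symbol per heart and a line at the mean of each group. The groups are apart for Kcne1l (12.3 to 21.02 against 4.31 to 4.85 CPM) and by a small gap for Kcne1 (45.4 to 52.6 against 57.5 to 68.9 CPM), and they overlap for the other genes.

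Kcne1, an activating partner of KCNQ1, was the only other member whose groups did not overlap, and its difference had the opposite direction. It had 45.4, 52.6 and 52.5 CPM in control replicates 2, 3 and 5, and 57.5, 61.7 and 68.9 CPM in mutant replicates 1, 5 and 10. The gap between the highest control and the lowest mutant heart was small next to the spread within the mutants. The log2 fold change was 0.32 (standard error 0.11), a 1.25-fold difference, and leaving out any 1 heart gave 0.25 to 0.38.

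Kcnq1 itself did not separate the groups. It had 17.6, 13.4 and 18.99 CPM in control replicates 2, 3 and 5, and 13.7, 18.5 and 21.04 CPM in mutant replicates 1, 5 and 10. The lowest hearts were control replicate 3 and mutant replicate 1, and the log2 fold change of 0.09 (standard error 0.19) turned below 0 without control replicate 3 (−0.04), without mutant replicate 10 (−0.05) and with the level of Xist in the fit (−0.02). Of the exon bases of Kcnq1, 121 (2.96%) are shared with Kcnq1ot1, its antisense transcript, and since the strand setting of the counting is not given in the sources used here, reads on these bases cannot be assigned to either gene with certainty. Kcnq1ot1 had 239 to 472 counts per heart and a log2 fold change of 0.03 (standard error 0.24).

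Kcnh2 was the member with the highest level and the smallest difference. It had 169.5, 155.5 and 167.9 CPM in control replicates 2, 3 and 5, all within the range of mutant replicates 1, 5 and 10 at 159.7, 152.2 and 171.6 CPM. The log2 fold change was −0.03 (standard error 0.10), and the coefficient of variation of its FPKM was 4.05% in control hearts and 3.55% in mutant hearts, the narrowest among the control spreads of the 7 genes.

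Kcne3, a partner that holds KCNQ1 open in epithelia, and Kcne4, an inhibitory one, were both led by a control heart. Kcne3 had 5.11, 5.84 and 11.6 CPM in control replicates 2, 3 and 5, against 5.39, 5.25 and 7.43 CPM in mutant replicates 1, 5 and 10. Kcne4 had 1.15, 1.98 and 3.34 CPM in the same control hearts, and 1.56, 1.54 and 1.37 CPM in the mutant hearts. In both genes control replicate 5 was the highest of the 6 hearts and the other control hearts lay within the mutant range or on either side of it. The log2 fold changes were −0.32 (standard error 0.32) for Kcne3 and −0.53 (standard error 0.38) for Kcne4; without control replicate 5 they were 0.14 and −0.07. That heart also had the lowest total count and differed from the others in its relation to gene length: over 11795 genes, the Spearman correlation of gene length with the deviation of a gene's level from its mean over the hearts was −0.56 there and between −0.06 and 0.46 in the other 5 hearts. With this trend removed from every heart the log2 fold changes were −0.29 for Kcne3 and −0.58 for Kcne4.

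Kcne2, a partner of KCNH2 and of KCNQ1, had the fewest reads, 56 to 92 per heart. Control replicates 2, 3 and 5 had 1.14, 1.55 and 1.91 CPM, and mutant replicates 1, 5 and 10 had 1.77, 1.45 and 1.11 CPM. The ranges coincided almost fully and the log2 fold change was −0.08 (standard error 0.30). At these counts, counting error alone gives a coefficient of variation of 11.3% in control hearts, and that observed for its FPKM was 24.2%.

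All 7 members passed the filter on low counts. None of the 7 was called by edgeR's quasi-likelihood test at an adjusted p under 0.05, where 0 of 17473 genes (0%) were called. At an unadjusted p under 0.05 the test held 2 of the 7, Kcne1l and Kcne1, beside 5.73% of all genes tested. DESeq2 called 1 of the 7, Kcne1l, beside 0.66% of 20013 genes with an adjusted p. The CPM of the groups did not overlap for 2 of the 7 genes and for 11.2% of all genes. Kcne1l was also called by edgeR without a filter on low counts (0.127% of genes called), without control replicate 5 (0.247%) and with the gene length trend removed (0.0343%), 4 of the 16 alternative settings including DESeq2. As the members were picked with this comparison known, nothing is read from these counts.

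**Figure D2:**
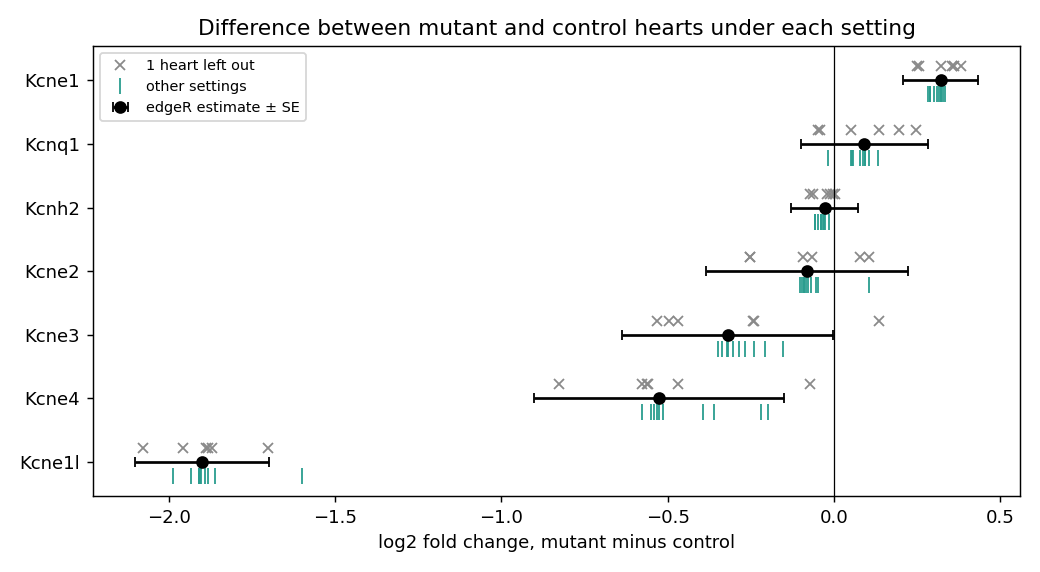
Fitted log2 fold change of each member, mutant minus control: black points with bars are the edgeR estimate ± 1 standard error, grey crosses the fits with 1 heart left out and green ticks the other settings. Kcne1l stays between −2.08 and −1.60 and Kcne1 between 0.25 and 0.38, while Kcnq1, Kcnh2, Kcne2 and Kcne3 have values on both sides of 0.

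The order of the members' levels depended on the length by which counts were divided. The deposited FPKM divide each count by 1 length per gene, and for 5 of the 7 members this length is within 1 base of the mean length of all annotated transcripts in GENCODE M21. The same held for 66.9% of 16755 genes with more than 1 transcript. For Kcnq1 the length was 858 bases, although the union of its exons has 4093 bases, because 7 transcripts of 182 to 3029 bases enter the mean. For Kcnh2 it was 1894 against 4845 bases, and for Kcne1 1878 against 3214 bases, whereas Kcne1l, with 1 transcript, had 1543 bases on either count.

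On the deposited FPKM the control means were 87.6 ± 3.55 for Kcnh2, 27.0 ± 2.15 for Kcne1, 19.6 ± 3.22 for Kcnq1, 11.0 ± 2.94 for Kcne1l, 6.71 ± 3.09 for Kcne3, 0.972 ± 0.485 for Kcne4 and 0.929 ± 0.225 for Kcne2 (SD, n = 3 each). Control hearts overlapped between Kcne1l and Kcne3 and between Kcne4 and Kcne2, and not between the other neighbours in this order. With the union of exons as length, the mean FPKM of Kcnq1 was 4.11 ± 0.675, below the 11.0 ± 2.94 of Kcne1l, and it overlapped with Kcne3 at 4.26 ± 1.96. Kcnh2 was then at 34.2 ± 1.39 and Kcne1 at 15.8 ± 1.26 FPKM. In control hearts Kcne1l therefore stood below Kcnq1 on one length and above it on the other, with no overlap of the hearts in either case. In mutant hearts the union length gave 2.88 ± 0.0857 FPKM for Kcne1l and 4.27 ± 0.764 for Kcnq1, so that there Kcne1l was the lower of the pair on both lengths.

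**Figure D3:**
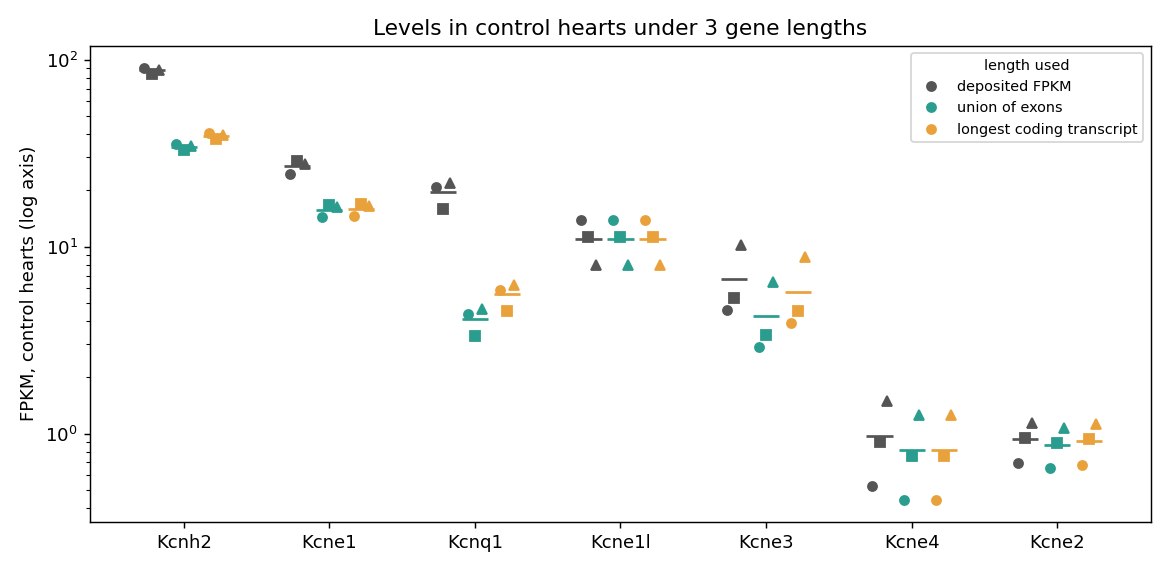
FPKM of the 7 genes in the 3 control hearts (circle, square and triangle for replicates 2, 3 and 5) on a log axis, with the deposited length in grey, the union of exons in green and the longest coding transcript in orange, and a line at each mean. Kcnq1 drops from 19.6 to 4.11 FPKM with the union of exons, and Kcne1l stays at 11.0.

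The makeup of the KCNE transcripts in each heart restates the values of Kcne1l and Kcne1 above in another form. Kcne1l held 31.3, 23.9 and 16.3% of the summed KCNE FPKM in control replicates 2, 3 and 5, and 6.99, 6.70 and 6.59% in mutant replicates 1, 5 and 10. Kcne1 held 55.5, 60.9 and 57.2% in the control hearts and 76.6, 78.4 and 76.9% in the mutant hearts. Neither share overlapped between the groups. The shares of a heart add up to the whole, so a lower Kcne1l share raises that of Kcne1 and these separations are not independent. The fitted difference of Kcne1 itself was 1.25-fold. For comparison, the CPM of the groups did not overlap for 11.2% of all genes. No such background is given here for shares or ratios. Kcne3 held 14.2 ± 5.93% (SD, n = 3) in controls and 12.3 ± 1.38% (SD, n = 3) in mutants, while Kcne2 and Kcne4 stayed near 2% in both groups, at 1.98 ± 0.39% and 2.06 ± 0.941% in controls and 2.05 ± 0.633% and 1.56 ± 0.243% in mutants. The summed KCNE level was 46.6 ± 2.27 FPKM in controls and 42.6 ± 2.33 FPKM in mutants, with overlapping hearts. With the union of exons as length it was 32.7 ± 0.477 and 26.8 ± 1.34 FPKM, and the hearts did not overlap. On that length Kcne1l made up 33.7 ± 9.46% in controls and 10.7 ± 0.277% in mutants.

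**Figure D4:**
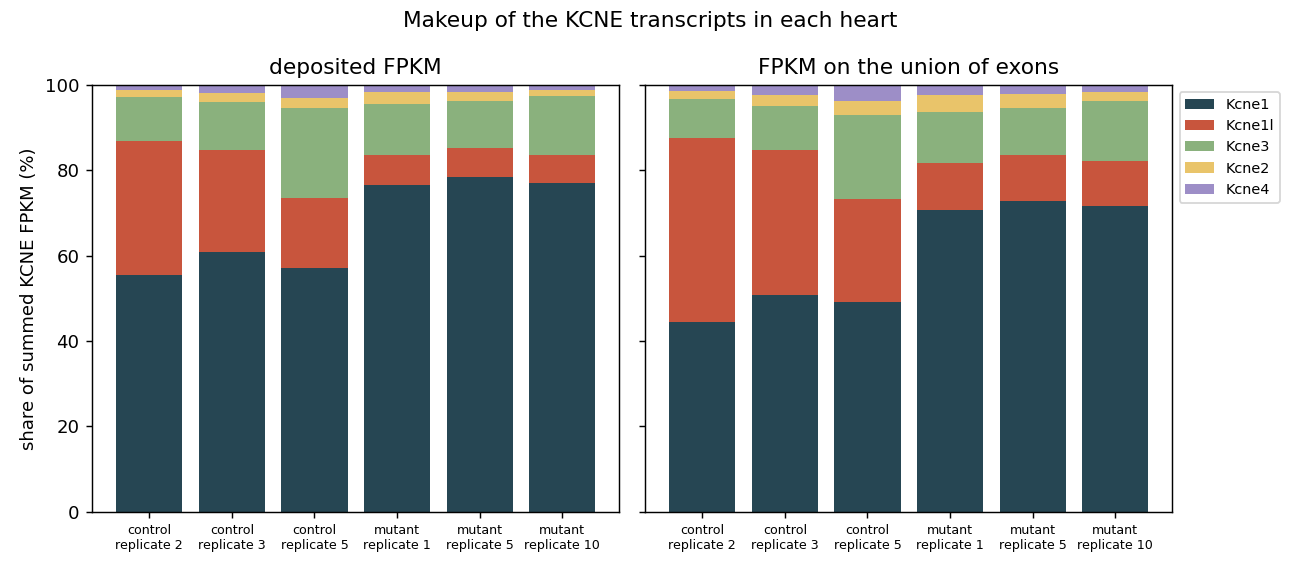
Share of each KCNE gene in the summed KCNE FPKM of each heart, in percent, stacked to the whole, with the deposited FPKM on the left and FPKM on the union of exons on the right. The Kcne1l part is narrower in each mutant heart (6.59 to 6.99% on the deposited FPKM) than in any control heart (16.3 to 31.3%).

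The ratios between members restate the same values, so their separation is no further result. On the deposited FPKM, Kcne1l per Kcnq1 was 0.664, 0.704 and 0.361 in control replicates 2, 3 and 5, and 0.175, 0.130 and 0.128 in mutant replicates 1, 5 and 10, without overlap. Kcne1 per Kcnq1 was 1.41 ± 0.332 in controls and 1.64 ± 0.234 in mutants (SD, n = 3), and the hearts overlapped. Kcne1l per Kcne1 was between 0.286 and 0.564 in controls and between 0.0855 and 0.0913 in mutants. Kcnh2 per Kcnq1 was 4.54 ± 0.643 and 4.23 ± 0.902, with overlap. A ratio between genes carries the length used, and with the union of exons Kcne1l per Kcnq1 was 2.75 ± 0.894 in controls and 0.689 ± 0.125 in mutants. These are ratios of transcripts, and no subunit protein or current was measured in these libraries.

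Xist, the transcript of the inactive X chromosome, was checked because Kcne1l is X-linked. Control replicate 2 and mutant replicates 5 and 10 had 15043 to 20494 Xist counts, and the other 3 hearts had 1 to 12. Within the hearts with high Xist the log2 CPM of Kcne1l differed by −2.19 (1 control and 2 mutant hearts), and within those with low Xist by −1.74 (2 control hearts and 1 mutant heart). With Xist as a covariate the log2 fold change was −1.99 (standard error 0.18). The control heart with the highest Kcne1l was the one with high Xist.

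EdgeR's quasi-likelihood test called 0 of 17473 genes, so the lack of a call cannot set a neighbour apart from Kcne1l. None of the 3 nearest tested genes on either side of Kcne1l was called. Towards lower coordinates these were Gm5643 (6.22 kb away, log2 fold change −0.41, standard error 0.39), Nxt2 (65.1 kb, 0.09, standard error 0.18) and Gm6382 (92.9 kb, −0.35, standard error 0.22). Towards higher coordinates they were Acsl4 (11.7 kb, 0.13, standard error 0.14), Gm5763 (325.2 kb, −0.06, standard error 0.45) and Tmem164 (375.1 kb, 0.12, standard error 0.10). Their adjusted p in edgeR's quasi-likelihood test lay between 0.964 and 0.996. Kcne1 and Kcne2 lie 47.9 kb apart on chromosome 16, and their log2 fold changes were 0.32 and −0.08. Genes that overlap a member, such as Kcnq1ot1 in Kcnq1, were left out of this search. The nearest remaining tested genes were Rcan1 for Kcne1 (0.15, standard error 0.13), Smim11 for Kcne2 (0.02, standard error 0.11) and Lipt2 for Kcne3 (−0.22, standard error 0.17). They were Gm6159 for Kcne4 (−0.27, standard error 0.44), Trpm5 for Kcnq1 (−0.25, standard error 0.28) and Nos3 for Kcnh2 (0.05, standard error 0.18). None of these neighbours passed the test, and neither did any other gene tested.

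The genes whose log2 CPM ran most closely with that of Kcne1l over the 6 hearts, out of 14155 compared, were Fbxo5, an inhibitor of the anaphase-promoting complex (Pearson's r = 0.997), Csdc2 (0.995), the heat shock factor gene Hsf1 (0.992), the synuclein gene Sncg (0.990) and Adcyap1r1, the receptor of the peptide PACAP (0.986). Their own log2 fold changes ran from −0.15 for Hsf1 and −0.20 for Fbxo5 to −2.59 for Adcyap1r1, so that likeness of pattern went with very different sizes of difference. On log2(FPKM + 0.1) Csdc2 ranked first and Hsf1 had rank 53. All points share 6 libraries and the groups enter the correlation, so these values only describe the hearts. For Kcne1 the closest genes were Srgn (0.990), Narf (0.986) and Ms4a6c (0.983), for Kcne2 Zfp956 (0.995), Tmem194b (0.990) and Svip (0.989), and for Kcnq1 Tbc1d22a (0.989), Vps45 (0.989) and Smagp (0.977). For Kcnh2 they were Fam216a (0.982), Zfp428 (0.978) and Letm2 (0.977), for Kcne4 Gm13408 (0.999), Tprkb (0.989) and Denr (0.988), and for Kcne3 Cfap20 (0.999), Hes6 (0.997) and Cyb5a (0.994). On log2(FPKM + 0.1) Denr had rank 748 for Kcne4 and Tbc1d22a rank 38 for Kcnq1. The other genes named for these members had ranks of 1 to 16 on that measure. Kcne3 had 155 genes with r over 0.95, against 12 to 39 for the other members. Between members, the highest correlation was that of Kcne3 with Kcne4 (0.808) and the lowest that of Kcne1 with Kcne1l (−0.862). Kcne3 and Kcne4 were both highest in control replicate 5, the heart that differed in its relation to gene length. Kcne3 had 11.6 CPM there, against 5.11 to 7.43 CPM in the other hearts. How far the 155 genes and the correlation of 0.808 rest on that heart was not tested.

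Markers of other cells and chambers were read in the same hearts. None of them was called by edgeR at an adjusted p under 0.05, where no gene tested was called. The counts at an unadjusted p under 0.05 stand beside 5.73% of all genes. Of 10 sinus venosus and pacemaker markers, 8 were lower in the mutant, 5 of them at an unadjusted p under 0.05, and their summed level was 141.3 to 161.0 FPKM in controls and 107.8 to 116.8 in mutants, without overlap. Of 10 atrial markers 8 were lower (5 at that p, and 1 higher), with overlapping sums of 4746 to 6441 and 4070 to 5236 FPKM. All 8 ventricular markers were higher (3 at that p), with overlapping sums of 11313 to 13717 and 13216 to 14520 FPKM. Of 12 epicardial markers 9 were higher (6 at that p, and 1 lower), with overlapping sums of 156.1 to 259.2 and 177.8 to 278.8 FPKM. Of 5 macrophage markers tested 4 were higher, all at that p, with sums of 16.4 to 18.6 and 20.6 to 22.2 FPKM that did not overlap. Foregut and airway markers, of which 4 of 7 tested were higher (2 at that p), did not overlap either, with sums of 20.1 to 21.7 and 26.5 to 52.6 FPKM. All 8 markers of endothelium and endocardium were higher (1 at that p), with overlapping sums of 229.2 to 341.7 and 302.8 to 376.3 FPKM. Of 11 smooth muscle and fibroblast markers 8 were higher (2 at that p), with overlapping sums of 1851 to 2497 and 2484 to 3034 FPKM. No cardiomyocyte, erythroid or neural marker reached that p, and the sums of these lists overlapped. No marker in the 12 lists was at 0 counts in all hearts. The part of any of these in the differences of Kcne1l and Kcne1 was not tested. Of 5 hepatocyte markers tested all were lower (4 at that p), and the list summed to 874.0 FPKM in control replicate 3 and to at most 23.4 FPKM in the other hearts; without that heart the log2 fold change of Kcne1l was −1.89 and that of Kcne1 0.36. Wt1 had a log2 fold change of −0.10 (standard error 0.31) and Tnnt2, whose promoter drives the Cre, of 0.11 (standard error 0.12). A whole-gene count of Wt1 does not tell recombined from intact alleles.

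Other alpha subunits of the families that KCNE proteins can join were followed as a list of 32 genes, of which 26 passed the filter. The other 6 had 0 to 20 counts per heart. None was called by edgeR at an adjusted p under 0.05 and DESeq2 called 1, Kcna5, beside the 0 and 132 genes called over the whole table. At an unadjusted p under 0.05, edgeR held 2 lower genes and 1 higher gene, beside 5.73% of all genes. Kcna5, the alpha subunit of the ultrarapid delayed rectifier of atrial muscle and itself in the atrial marker list, had 24.6, 21.6 and 21.8 CPM in control replicates 2, 3 and 5. In mutant replicates 1, 5 and 10 it had 13.7, 12.9 and 14.4 CPM. The groups did not overlap, as those of 11.2% of all genes did not. The list was chosen with earlier results of these data known, so the Kcna5 values are a description and support nothing. The fold change of Kcna5 on the log2 scale was −0.73 ± 0.11 (SE). Its adjusted p was 0.133 in edgeR's quasi-likelihood test and 9.13e-05 in DESeq2. Without control replicate 5 the edgeR fit called Kcna5, beside 0.247% of genes. Kcna7, a subunit of the same Shaker family, came to −0.87 ± 0.25 (SE) on that scale, with an adjusted p of 0.640 in edgeR, and had 1.07 to 2.66 CPM over the hearts. Kcnc4, of the Shaw family, came to 1.05 ± 0.43 (SE), with an adjusted p of 0.847 in edgeR, on only 7 to 34 counts per heart.

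Of the 26 alpha subunit genes 17 had lower and 9 higher mutant levels and the median log2 fold change was −0.19, beside 8774 lower and 8699 higher genes and a median of −0.001 over all genes tested. Without control replicate 3 the median of the list was −0.01. Including Kcna5, 9 genes of the list had a control mean of at least 1 deposited FPKM. None of them passed edgeR's test, which no gene of the whole table passed. The pacemaker subunit gene Hcn4 was at 8.33 ± 1.33 FPKM in controls and 8.64 ± 0.788 in mutants. The transient outward subunit genes were at 1.48 ± 0.17 and 1.15 ± 0.0691 FPKM for Kcnd2, 1.86 ± 0.0998 and 1.48 ± 0.403 for Kcnd3, and 3.16 ± 0.204 and 3.33 ± 0.283 for Kcna4. Among the closest relatives of the members, Kcnq5 was at 4.66 ± 1.03 and 4.91 ± 0.629 FPKM, Kcnq3 at 1.31 ± 0.378 and 1.04 ± 0.194, and Kcnh7 at 1.85 ± 0.755 and 1.36 ± 0.241 (controls and mutants, SD, n = 3).

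The 22 genes of complex partners and regulators all passed the filter. None was called by edgeR, beside 0% of all genes, or by DESeq2, beside 0.66% of all genes. With shares this low, nothing is read from the lack of calls. Of the 22 genes 12 were higher and 10 lower, with a median log2 fold change of 0.02. At an unadjusted p under 0.05 edgeR held 1 gene of the 22, beside 5.73% of all genes. This was Sgk1, a kinase known to raise the current of KCNQ1 with KCNE1, with 18.7, 20.4 and 18.4 CPM in control replicates 2, 3 and 5 and 23.5, 23.2 and 26.4 CPM in mutant replicates 1, 5 and 10. Its groups did not overlap, as those of 11.2% of all genes did not, and lay 0.35 ± 0.10 (SE) apart on the log2 scale, with an adjusted p of 0.657 in edgeR. Akap9, the scaffold of the KCNQ1 complex also called yotiao, was at 29.5 ± 11.0 FPKM in controls and 31.8 ± 4.71 in mutants. The calmodulin genes Calm2 and Calm3 had log2 fold changes of −0.07 and −0.02. The log2 fold change was 0.07 for the kinase subunit gene Prkaca, 0.02 for the phosphatase gene Ppp1ca, 0.13 for the phosphodiesterase gene Pde4d and 0.16 for the ubiquitin ligase gene Nedd4l. Of the genes that serve the folding or turnover of KCNH2, Hspa8 had −0.05, Hsp90aa1 0.05, Dnaja1 −0.07 and Rnf207 −0.18, and Cav3, of the caveolae, had 0.37 (standard error 0.19). Nos1ap had 0.05 and the KChIP gene Kcnip3 −0.08.

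**Figure D5:**
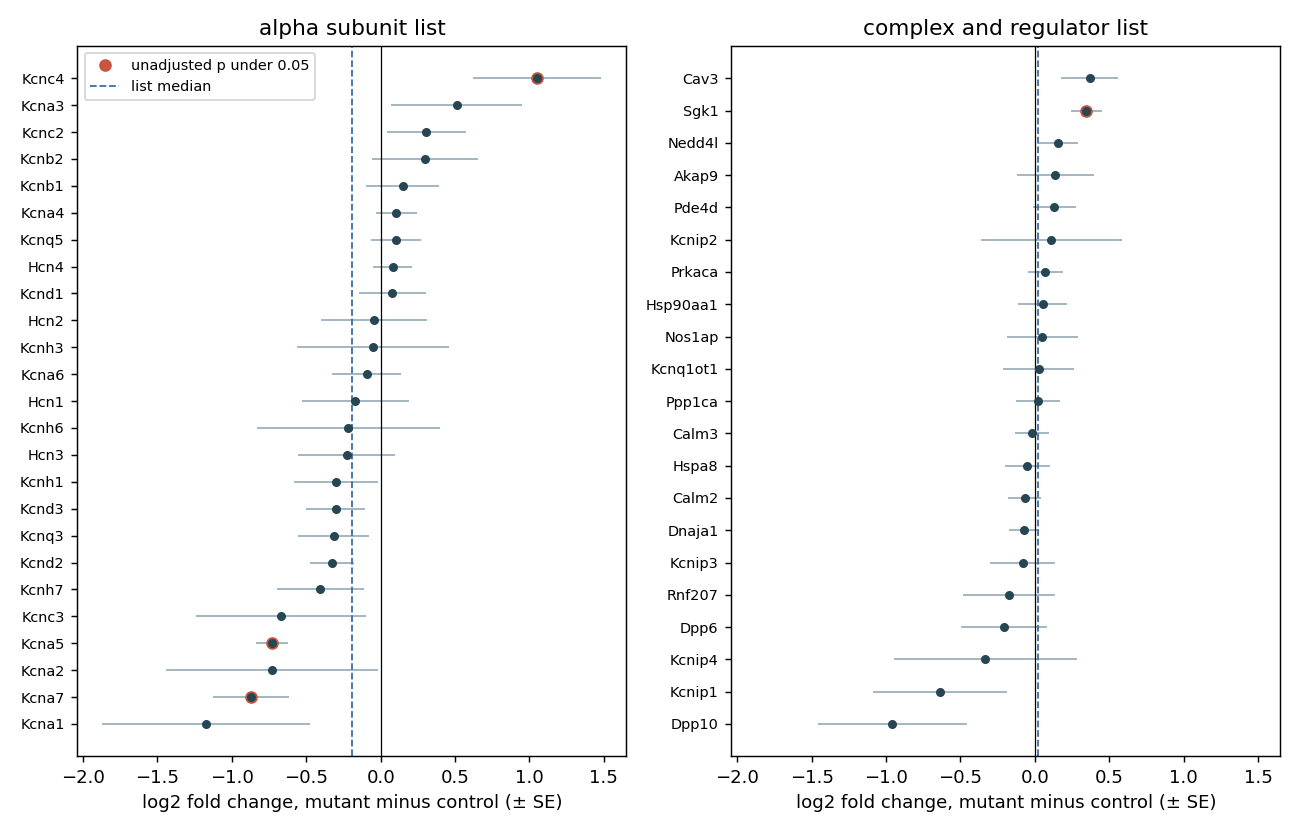
Fitted log2 fold change (mutant minus control) ± 1 standard error of 25 alpha subunit genes and 21 partner and regulator genes tested, with genes at an unadjusted p under 0.05 in red, a line at 0 and a dashed line at the median of all tested genes of the list. The alpha subunits centre on −0.19 and the partners and regulators on 0.02, with Kcna5 at −0.73 and Sgk1 at 0.35.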

How the data were processed

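RNA of 6 hearts was sequenced in the study by TruSeq libraries with paired reads. Per the methods, reads were trimmed by the authors, mapped to mm10 by STAR and, where unique, counted on GENCODE M19 genes (GRCm38.p6) with featureCounts; the submitters' processing notes name HTSeq and DESeq2. The strand setting is not given in the sources used here. The authors deposited raw read counts and FPKM values, and each FPKM is the count divided by 1 length per gene and by the heart's total (largest relative deviation 6.1e-14). Group means and the authors' own comparisons were not used. Depth was 44244665 to 56373393 counts per heart, and counting errors given here cover counting only. Nothing in the labels says whether hearts came from separate litters, so errors measure only the spread between these hearts.

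Counts were fitted with edgeR 4.0.16 (R 4.3.3), with TMM, filterByExpr (count minimum 10, total 15), glmQLFit and a two-sided glmQLFTest with no covariates, and Benjamini-Hochberg adjustment over 17473 genes. The study's DESeq2 test (here version 1.42.0), limma 3.58.1 on log2(FPKM + 1) or log2(FPKM + 0.1), voom, other size factors and filters, Xist, a gene length trend and the omission of each heart were alternatives. Exon-union and coding-transcript lengths and the split by Xist were added after seeing the data. Members and gene lists were chosen with earlier results of these data known. Named genes are all members, list genes with an unadjusted p under 0.05 or a control mean of at least 1 FPKM, the 5 (Kcne1l) or 3 genes of the most similar log2 CPM, and chromosome neighbours; a few genes under this rule are not reported here. Positions are those of GENCODE M21 and promoters those of RefSeq (GRCm38.p6).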

Additional observations from a re-analysis of the deposited data

How the results depend on the processing

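The number of members called by edgeR, 0, became 1 (Kcne1l) with DESeq2, without a filter on low counts, with the gene length trend removed and without control replicate 5, and stayed 0 in the other settings. Over all genes the call of 0 became 132 with DESeq2, 34 without the filter and 6 with the length trend removed, and ranged from 0 to 44 with a heart left out, 44 being without control replicate 5. The cause was not tested. The alpha subunit list had 1 call (Kcna5) with DESeq2 and 0 to 1 with a heart left out.

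The log2 fold change of Kcne1l, −1.90, was −1.60 on log2(FPKM + 1), where the pseudocount shrinks it by construction, −2.19 within the hearts with high Xist, and −2.08 to −1.70 with a heart left out. With Xist as a covariate the sign turned for Kcne2 (0.11) and Kcnq1 (−0.018). With a heart left out, Kcne2 ranged from −0.25 to 0.11, Kcne3 from −0.53 to 0.14, Kcne4 from −0.83 to −0.07, Kcnq1 from −0.047 to 0.25 and Kcnh2 from −0.073 to 0.0029. The median of the alpha subunit list ranged from −0.25 to −0.0059. That of the partners and regulators ranged from −0.031 to 0.025, and was −0.0014 and −0.0058 on log2(FPKM + 1) and log2(FPKM + 0.1) and −0.0012 with library totals alone.

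With the union of exons as length the control level was 15.8 FPKM for Kcne1, 4.11 for Kcnq1 and 34.2 for Kcnh2, and with the longest coding transcript 16.0, 5.55 and 39.3. The difference in KCNE share (mutant minus control, in percentage points) was 19.5 for Kcne1 and −17.1 for Kcne1l, and 23.6 and −23.0 with the union of exons. For Kcne2 it was 0.07, and −0.014 on CPM. With a heart left out it ranged from −0.24 to 0.39 for Kcne2, from −3.88 to 1.45 for Kcne3 and from −0.93 to 0.0037 for Kcne4. No paired analysis was run because the labels name no pairs or litters. Replicate number 5 occurs in both groups, but nothing states that it marks a pair. Kcne2 and Kcne4, with the fewest reads, are the members whose values depth limits most. In control hearts counting error alone would give Kcne4 a coefficient of variation of 9.59%, and that observed for its FPKM was 49.9%.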
